A study of Mus musculus with 6 samples.

Results

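The genes described here are 10 genes of the major histocompatibility complex (MHC) class I antigen presentation pathway, out of 23154 gene IDs in the deposited count tables. They were chosen by name: the classical heavy chains H2-K1 and H2-D1, the light chain B2m, the peptide transporter genes Tap1 and Tap2, the loading chaperone gene Tapbp, the immunoproteasome genes Psmb8, Psmb9 and Psmb10, and the transactivator gene Nlrc5. All 10 were found by their GENCODE M21 symbols. The RNA came from C2C12, an established mouse myoblast line, and was sequenced as poly(A) RNA. A stable line with pINDUCER20b-HA-NUR77, which makes HA-tagged NUR77 (the nuclear receptor encoded by Nr4a1) when doxycycline is given, was compared with a stable line with pINDUCER20b-GFP, and each group had 3 libraries. Both groups received doxycycline at 1 µg/mL, 24 hours after seeding and for 18 hours, in the same serum-containing medium. All libraries used here came from cells given doxycycline. Each construct is represented by a single stable line in the labels, so an effect of the construct and any other difference between the lines cannot be told apart. One dish was used per replicate, and where replicates are dishes of 1 line the p-values measure the spread between dishes. Below, HA1, HA2 and HA3 are the HA-NUR77 libraries of replicates 1, 2 and 3, and GFP1, GFP2 and GFP3 those of GFP.

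MHC class I molecules show short peptides from inside the cell to CD8 T cells and natural killer cells. The proteasome cuts proteins into peptides, the TAP transporter moves them into the endoplasmic reticulum, tapasin (Tapbp) and its partners load them onto a heavy chain paired with beta-2-microglobulin (B2m), and the complex travels to the surface. Interferons raise many genes of this pathway, exchange the standard catalytic subunits of the proteasome for the immunoproteasome set, and act in part through NLRC5, a transactivator that works with RFX, CREB and NF-Y proteins bound to class I promoters. Resting muscle cells are known for low class I levels.

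Because the promoters of heavy chain and light chain genes carry closely related regulatory letters, the stretches just upstream of their start sites are shown first (RefSeq, build GRCm38.p6, 5′ to 3′ on the gene's strand). Capitals mark matches on either strand to the letters GGGNNTTNC (an NF-kB site), GAAANNGAA or GAANNGAAA (cores of the interferon-stimulated response element), TGACG (the core of the X2 box, bound by CREB and ATF proteins) and CCAAT (the Y box, bound by NF-Y). The H2-K1 stretch is chr17:34000348-34000472 on the minus strand, the B2m stretch is chr2:122147537-122147656 on the plus strand, and 2 elements of H2-D1 are chr17:35262923-35262952 and chr17:35262993-35263022 on the plus strand.
H2-K1: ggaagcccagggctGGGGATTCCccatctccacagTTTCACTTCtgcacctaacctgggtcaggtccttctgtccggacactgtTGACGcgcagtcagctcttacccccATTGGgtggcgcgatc
B2m: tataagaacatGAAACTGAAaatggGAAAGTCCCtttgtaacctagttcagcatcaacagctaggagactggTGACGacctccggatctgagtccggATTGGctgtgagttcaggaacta
H2-D1, first element: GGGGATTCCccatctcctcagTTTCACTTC
H2-D1, second element: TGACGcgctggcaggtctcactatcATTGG

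The first element, from the NF-kB site to the interferon core, differed at 1 of 30 bases between H2-K1 and H2-D1, and the second, from the X2 core to the Y box, at 7 of 30. In H2-K1, H2-D1 and B2m alike, 20 bases lay between TGACG and ATTGG, the Y box read on the other strand. This spaced pair was looked for after the windows had been read. It was present in 26 of 27025 promoter windows (0.0962%), each 300 bases long, and the 26 included the class I-like gene H2-M3. The upstream windows of H2-K1 and H2-D1 were 91.0% identical over 177 aligned columns. Since the pair was read from H2-K1, H2-D1 and B2m, these 3 of the 8 members with a window were bound to be among the 26. Tap2 and Nlrc5 have no entry. The NF-kB letters were in 3 of the 8 windows (H2-K1, H2-D1 and B2m; 15.1% of all), TGACG in 5 (also Tap1 and Psmb9; 21.0%) and CCAAT in 6 (also Tapbp; 37.9%). GAAANNGAA was in the B2m window only (8.57% of all), GAANNGAAA, added after reading the windows, in those of H2-K1 and H2-D1 (7.56%), and TTCNNNGAA, the gamma-activated site, in that of Psmb8 (8.47%). AAAGGTCA, the NBRE to which NUR77 binds as a monomer, was in 0 of the 8 (1.46% of all). Such matches describe letters in these windows and not binding.

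The start sites of Tap1 and Psmb9 lie 225 bases apart on opposite strands, so their windows overlap and share the same TGACG and CCAAT. Both belong to a cluster in the MHC on chromosome 17, where 7 of the 10 members lie. Tapbp is at chr17:33915899-33929292, H2-K1 at chr17:33996017-34000347, Psmb9 at chr17:34181987-34187764, Tap1 at chr17:34187553-34197225, Psmb8 at chr17:34197721-34201454, Tap2 at chr17:34203527-34216321 and H2-D1 at chr17:35262730-35267499. B2m is at chr2:122147686-122153083, and 2 members are on chromosome 8, Nlrc5 at chr8:94434356-94527272 and Psmb10 at chr8:105935735-105938444 (GENCODE M21, GRCm38).

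The libraries held 13906096 to 22821446 counts. Nr4a1 stood at 22.5 ± 3.03 against 20.3 ± 7.42 CPM (counts scaled to library size, SD, n = 3) in HA-NUR77 and GFP and did not pass the test (edgeR adjusted p = 0.698), and this does not check the labels, which do not say from which species the inserted NUR77 sequence came. Markers of myoblasts were abundant, Des at 3296 ± 381 and 2498 ± 429 CPM (edgeR adjusted p = 0.0872, 0.000454 with the replicate number as a block). Summed over the 12 listed, they stood at 9287 to 10380 CPM in HA-NUR77 and 6306 to 8489 in GFP. Of 11 tested by edgeR, 2 were higher, 1 lower and 8 did not pass, against 12.4% higher and 13.2% lower of all genes. With the block 6 were higher (against 23.5% of all genes) and 2 lower. The defining leukocyte markers were at or near 0: of 11 T and NK cell markers 5 had no read, and Ptprc, the CD45 gene of all leukocytes, had 6 reads in the 6 libraries. The summed levels were 5.81 to 7.91 CPM in HA-NUR77 and 4.98 to 5.54 in GFP for 11 macrophage markers, 12.6 to 19.4 and 6.93 to 10.3 for the T and NK list, most of it Il2rb (14.6 ± 3.28 and 6.20 ± 2.07 CPM, edgeR adjusted p = 0.0143, higher, with Trac, the other one tested, lower at 1.29 and 2.32 CPM, adjusted p = 0.0389), and 0.215 to 0.517 and 0.203 to 0.412 for 8 dendritic and B cell markers, led by Cd79a (0.309 and 0.238). They were 1.26 to 1.81 and 1.01 to 2.13 for 7 endothelial markers, with Tek and Vwf each under 1 CPM, and 5397 to 6239 and 7001 to 8469 for 7 fibroblast genes, most of it Col3a1 (edgeR adjusted p = 0.0449, lower in HA-NUR77). Of the 5 tested fibroblast genes 2 were lower (Col3a1 and Pdgfra, log2 −0.98, edgeR adjusted p = 0.00085) and 2 higher (Ly6a, 1.22, adjusted p = 0.00133, and Cd34, 0.82, adjusted p = 0.0388). Cd14 was the most abundant macrophage marker (3.01 ± 0.786 and 2.31 ± 0.616 CPM), and of the 3 tested Csf1r was higher (1.35 and 0.426 CPM, edgeR adjusted p = 0.0443). The part of these genes in the results below was not tested.

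Of the 9 members that passed the filter on low counts, 5 were higher in the HA-NUR77 libraries by edgeR, 0 were lower and 4 did not pass the test. At an unadjusted p under 0.05, 8 were higher and 0 lower, and DESeq2 gave 6 and 0. Over all genes DESeq2 gave 1593 higher and 1849 lower. A share of all genes at an unadjusted p is not given, here or below. H2-K1, H2-D1, B2m, Psmb10 and Nlrc5 rose, while Tap1, Tap2, Tapbp and Psmb8 did not pass. Over all 12509 genes tested, 12.4% were higher and 13.2% lower (edgeR, adjusted p under 0.05 over all genes). The median log2 fold change was 1.02 for the 9 members and 0.01 for all genes. With the replicate number as a block, a fit in which libraries of the same number are paired, 8 of the 9 were higher, against 23.5% of all genes, and without HA3 8 were higher as well. Psmb9 had too few reads to be tested. In 5 of the 9 tested members all HA-NUR77 libraries lay above all GFP libraries, as in 23% of all tested genes.

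**Figure D1:**
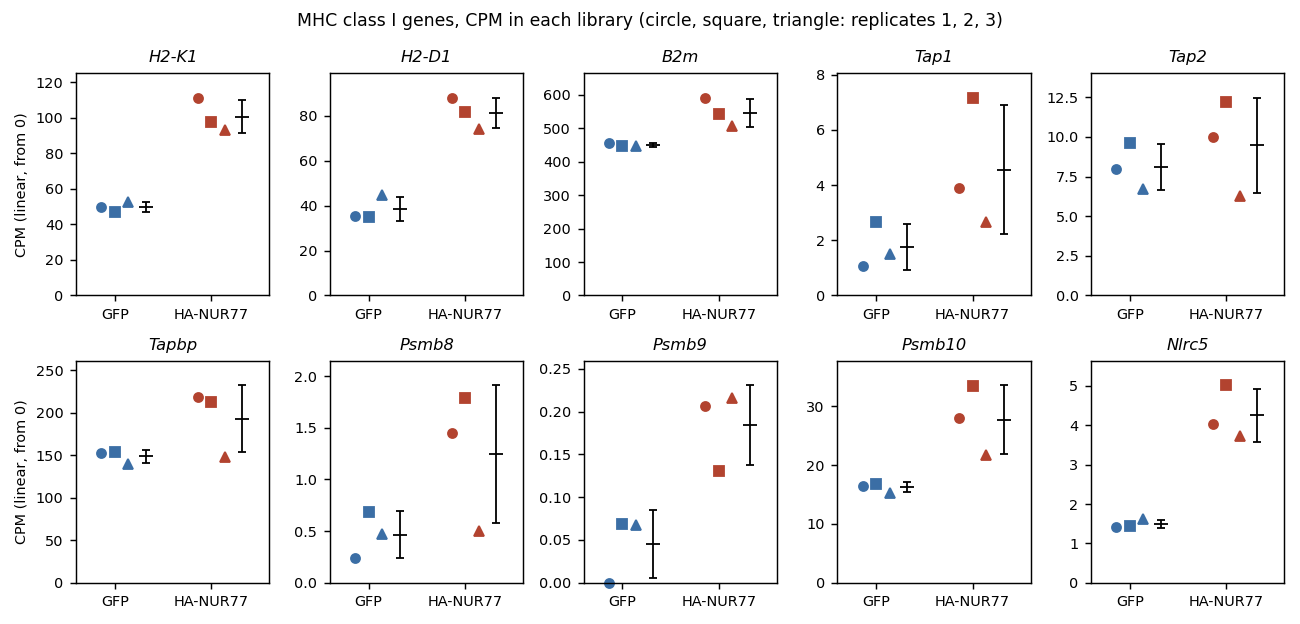
Level of each of the 10 members in CPM (linear axis from 0), with 1 point a library (blue GFP, red HA-NUR77; circle, square and triangle for replicates 1, 2 and 3) and the mean ± SD of 3 beside them. The groups do not overlap for H2-K1, H2-D1, B2m, Psmb9, Psmb10 and Nlrc5, and HA3 is not above all GFP libraries for Tap1, Tap2, Tapbp and Psmb8.

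Both heavy chains rose. H2-K1 (ENSMUSG00000061232) encodes the K heavy chain, which holds the peptide, and stood at 111.1, 97.5 and 93.3 CPM in HA1, HA2 and HA3 and at 49.7, 46.8 and 52.6 CPM in GFP1, GFP2 and GFP3. The lowest HA-NUR77 library was above the highest GFP library. In bulk RNA, as here and below, more cells with a transcript and more of it per cell cannot be told apart. The means were 100.6 ± 9.30 and 49.7 ± 2.90 CPM (SD, n = 3), a 2.03-fold rise (log2 fold change 1.02, SE 0.09, edgeR adjusted p = 0.000389). H2-D1 (ENSMUSG00000073411), the D heavy chain, stood at 87.7, 81.6 and 74.3 CPM against 35.6, 34.9 and 44.6 CPM, again with no overlap. Its rise was 2.12-fold (log2 1.08, SE 0.11, adjusted p = 0.000941). Both rises passed the threshold in every fit that left out 1 library, with log2 fold changes of 0.94 to 1.07 for H2-K1 and 1.02 to 1.20 for H2-D1.

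These 2 genes are polymorphic and similar to each other, which bears on their counts. Of all 50-base windows in the longest coding transcript, 8.79% of those in H2-K1 and 14.3% of those in H2-D1 were also present in transcripts of other genes, first among them H2-D1 and H2-Q1, so the split of reads between heavy chain genes is uncertain. B2m, Psmb8, Psmb9, Psmb10 and Nlrc5 shared none, and Tap1 (0.861%), Tap2 (0.737%) and Tapbp (2.0%) shared few. C2C12 cells come from the C3H strain, whose MHC haplotype differs from that of the C57BL/6J reference. Reads from the C3H alleles may be lost or assigned elsewhere in both lines, and the size of this was not tested.

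The light chain also rose, with a smaller fitted change than the heavy chains. B2m (ENSMUSG00000060802) was the most abundant member per length, at 635 CPM per kb of exon in HA-NUR77 and 524 in GFP, against 34.2 and 16.9 for H2-K1. It stood at 591, 542 and 506 CPM in the HA-NUR77 libraries and 456, 448 and 447 CPM in the GFP libraries, so that even the lowest HA-NUR77 library was above all of GFP. The change was 1.21-fold (95% interval 1.06 to 1.38; log2 0.28, SE 0.08, edgeR adjusted p = 0.0419). That call was lost with no filter on low counts (adjusted p = 0.0563) and without HA1 or HA2 or any 1 of the 3 GFP libraries (adjusted p from 0.0738 to 0.159).

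**Figure D2:**
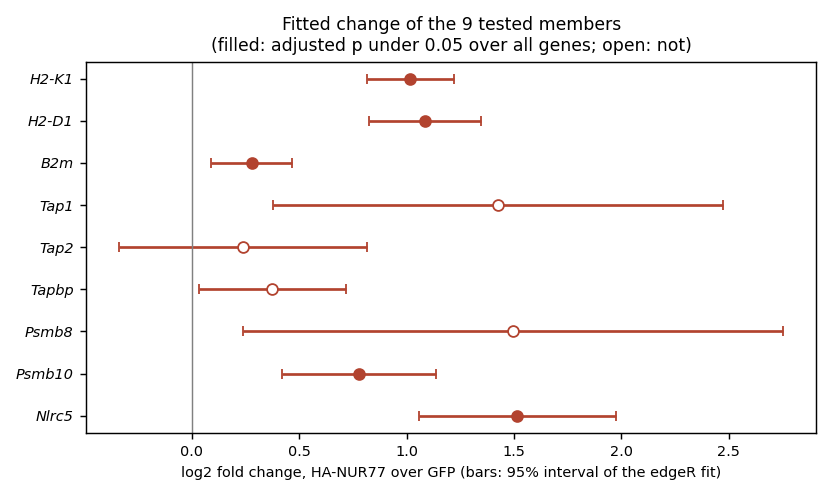
Fitted log2 fold change of HA-NUR77 over GFP for the 9 tested members, with the 95% interval of the edgeR fit. Filled points have an adjusted p under 0.05 over all genes, namely H2-K1, H2-D1, B2m, Psmb10 and Nlrc5, and Tap1 and Psmb8 have fold changes as large with wide intervals.

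Within each library, the summed reads per kb of H2-K1 and H2-D1 came to 10.4%, 10.3% and 10.3% of those of B2m in HA1, HA2 and HA3, and to 5.79%, 5.65% and 6.77% in GFP. The ratio of heavy to light chain was therefore nearly the same in all 3 HA-NUR77 libraries and did not overlap with GFP. It was 1.71-fold higher, with an exact two-sided permutation p = 0.1, the smallest that 3 against 3 libraries allow. This ratio and that of Tap1 to Tap2 were chosen after their values had been seen, and adjusted over these 2 the p was again 0.1.

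Nlrc5 rose from a low level, with a fitted change close to that of Psmb8 and the largest of the 5 members that passed the test. Nlrc5 (ENSMUSG00000074151) encodes the transactivator of class I genes and stood at 4.03, 5.02 and 3.73 CPM in HA-NUR77 against 1.42, 1.44 and 1.62 CPM in GFP. All HA-NUR77 libraries were above all GFP libraries. The reads were 78, 115 and 52 against 24, 21 and 24, a 2.86-fold rise (log2 1.52, SE 0.20, edgeR adjusted p = 0.00226) that passed without any 1 library. By summed reads scaled for depth, the ratio was 2.94 (exact binomial 95% interval 2.24 to 3.90, which covers counting error only, here and for the ratios below).

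The immunoproteasome members were unlike in level and in how their libraries lay. Psmb10 (ENSMUSG00000031897), the subunit MECL-1, was by far the most abundant of the 3, at 28.1, 33.4 and 21.7 CPM in HA-NUR77 and 16.5, 16.9 and 15.3 CPM in GFP. The groups did not overlap, though HA3 was closest to GFP. The rise was 1.72-fold (log2 0.78, SE 0.15, edgeR adjusted p = 0.0116) and passed without any 1 library (adjusted p from 0.00293 to 0.048).

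Psmb8 (ENSMUSG00000024338), the subunit LMP7, had 28, 41 and 7 reads in HA-NUR77 and 4, 10 and 7 in GFP. HA1 and HA2 were above GFP, at 1.45 and 1.79 CPM, and HA3, at 0.502 CPM, lay within the GFP range of 0.237 to 0.686. The fitted change of 1.5 on the log2 scale (SE 0.54, edgeR adjusted p = 0.0779) did not pass, did pass without HA3 (adjusted p = 0.0249), and had an adjusted p of 0.0104 with the block. The depth-scaled ratio of 76 to 21 reads was 3.0 (1.83 to 5.12). Psmb9 (ENSMUSG00000096727), the subunit LMP2, had 4, 3 and 3 reads against 0, 1 and 1, a ratio of 4.14 whose interval of 0.883 to 38.9 includes 1. At this depth no difference was detectable for Psmb9, and with no filter on low counts its edgeR adjusted p was 0.22.

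LMP7 and MECL-1 take the places of the standard subunits encoded by Psmb5 and Psmb7. Psmb8 reads per kb of exon came to 0.406%, 0.522% and 0.136% of Psmb5 in HA-NUR77 and 0.0841%, 0.228% and 0.147% in GFP, and Psmb10 to 24.7%, 31.1% and 17.8% of Psmb7 against 20.8%, 20.1% and 16.9%. In both ratios HA1 and HA2 were the 2 highest libraries and HA3 overlapped with GFP. Set beside the GFP library of the same number, the HA-NUR77 library was higher in 3 of 3 pairs for Psmb10 to Psmb7 and in 2 of 3 for Psmb8 to Psmb5. The mean log2 ratios were higher by 1.12 (Psmb8) and 0.32 (Psmb10), each with an exact permutation p = 0.3 (two-sided and not paired, also 0.3 adjusted over the 2). The Psmb10 difference was 0.13 without HA2 and 0.53 without HA3, and the Psmb8 difference ran from 0.74 without HA2 to 1.7 without HA3. Psmb9 to Psmb6 was not formed because 1 GFP library had 0 reads of Psmb9. Exon lengths are unions over all annotated transcripts, so the percentages depend on the annotation, and their log2 differences between libraries do not.

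**Figure D3:**
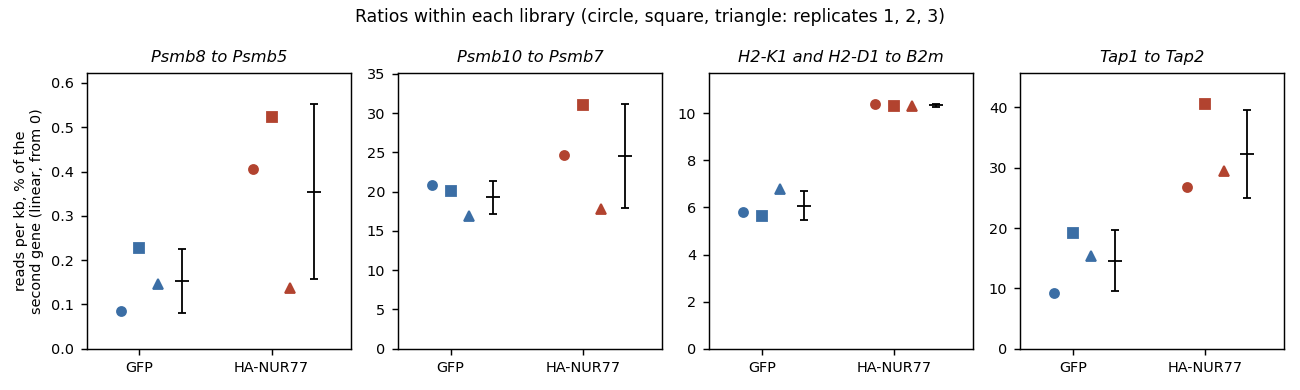
Reads per kb of the first gene or genes as a percentage of those of the second, in each library (linear axes from 0; circle, square and triangle for replicates 1, 2 and 3), with mean ± SD of 3. The ratio of H2-K1 and H2-D1 to B2m sits at 10.3% to 10.4% in HA-NUR77 and at 5.65% to 6.77% in GFP, while the Psmb8 and Psmb10 ratios of HA3 lie within the GFP range.

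The peptide transport and loading genes did not pass the test. Tap1 (ENSMUSG00000037321), a subunit of the ATP-driven transporter, had 75, 164 and 37 reads in HA-NUR77 and 18, 39 and 22 in GFP, or 3.88, 7.16 and 2.66 CPM against 1.07, 2.68 and 1.49 CPM. HA3 was just below GFP2, and the other HA-NUR77 libraries were above all of GFP. The log2 fold change was 1.43 (SE 0.45, edgeR adjusted p = 0.0534), with an adjusted p of 0.0347 without HA3, 0.0436 without GFP2, 0.0142 by DESeq2 and 0.000207 with the block. By depth-scaled reads the ratio was 2.9 (2.25 to 3.77). The log2 fold change ran from 0.93 without HA2 to 1.87 without GFP2.

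Tap2 (ENSMUSG00000024339), the other subunit, stood at 9.97, 12.2 and 6.24 CPM against 8.0, 9.61 and 6.69 CPM, and the groups overlapped, with HA3 the lowest of all 6 libraries. Its log2 fold change was 0.24 (95% interval −0.34 to 0.82, edgeR adjusted p = 0.496), and it ran from 0.02 without HA2 to 0.45 without HA3. Tap1 reads per kb of exon were 26.8%, 40.6% and 29.4% of those of Tap2 in HA-NUR77 and 9.21%, 19.2% and 15.3% in GFP, with no overlap (exact permutation p = 0.1, two-sided). Tapbp (ENSMUSG00000024308) encodes tapasin, which holds empty class I molecules at the transporter, and stood at 219, 212 and 147 CPM against 153, 154 and 140 CPM. HA3 was again among the GFP libraries. Its log2 fold change was 0.38 (SE 0.15, edgeR adjusted p = 0.0953), 0.53 without HA3 (adjusted p = 0.00671), with adjusted p = 0.00513 with the block. Zbtb22 overlaps Tapbp over 3422 bases on the same strand and had 3553 reads in the 6 libraries, so reads of that stretch are uncertain.

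HA3 differed from the other HA-NUR77 libraries to unlike degrees across the members. Relative to the mean of the other 2 HA-NUR77 libraries, its CPM was 89.4% for H2-K1, 87.7% for H2-D1, 89.3% for B2m and 82.5% for Nlrc5. It was 70.7% for Psmb10, 68.4% for Tapbp, 56.4% for Tap2, 48.1% for Tap1 and 31% for Psmb8. As a multiple of the GFP mean, this library stood at 2.5 for Nlrc5, 1.94 for H2-D1, 1.88 for H2-K1, 1.52 for Tap1, 1.34 for Psmb10, 1.12 for B2m, 1.08 for Psmb8, 0.991 for Tapbp and 0.771 for Tap2. Psmb9, with 3 reads there, was too low to place. This comparison was chosen after the values were seen and was not tested. Over all 12509 genes tested the median was 100.0%.

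The listed interferon-stimulated genes had the same library apart. Of 47 tested, 15 rose (31.9%, against 12.4% of all genes), 0 fell (against 13.2% of all genes) and 32 did not pass by edgeR. At an unadjusted p under 0.05, 34 were higher and 0 lower, and DESeq2 gave 19 and 0 (1593 and 1849 over all genes). Without HA3, 35 were higher, as were 8 of the 9 tested members, against 8.21% of all genes in that fit. For each of the 47, the CPM in HA3 was taken as a percentage of the mean of the other 2 HA-NUR77 libraries. The median of these percentages was 34.4%, and in 33 of the genes HA3 was at or below the highest GFP library. Isg15, a ubiquitin-like protein induced by interferon, had 36.0, 56.6 and 8.47 CPM against 3.50, 11.5 and 8.99. Bst2, which tethers budding virus (1.69, SE 0.29, edgeR adjusted p = 0.00751; 0.108 with the block), Ifi27 (log2 fold change 1.01, SE 0.13, edgeR adjusted p = 0.0025), Ifi27l2a (3.30, SE 0.46, adjusted p = 0.00331) and Ifi35 (1.32, SE 0.21, adjusted p = 0.0054) were higher. The median log2 fold change of the list was 1.30. Those higher numbered 7 without HA1 or GFP1, 9 with no filter on low counts and 10 without HA2. Over all genes those higher also fell, from 1549 to 672 without HA1, 642 without GFP1 and 1258 without HA2.

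**Figure D4:**
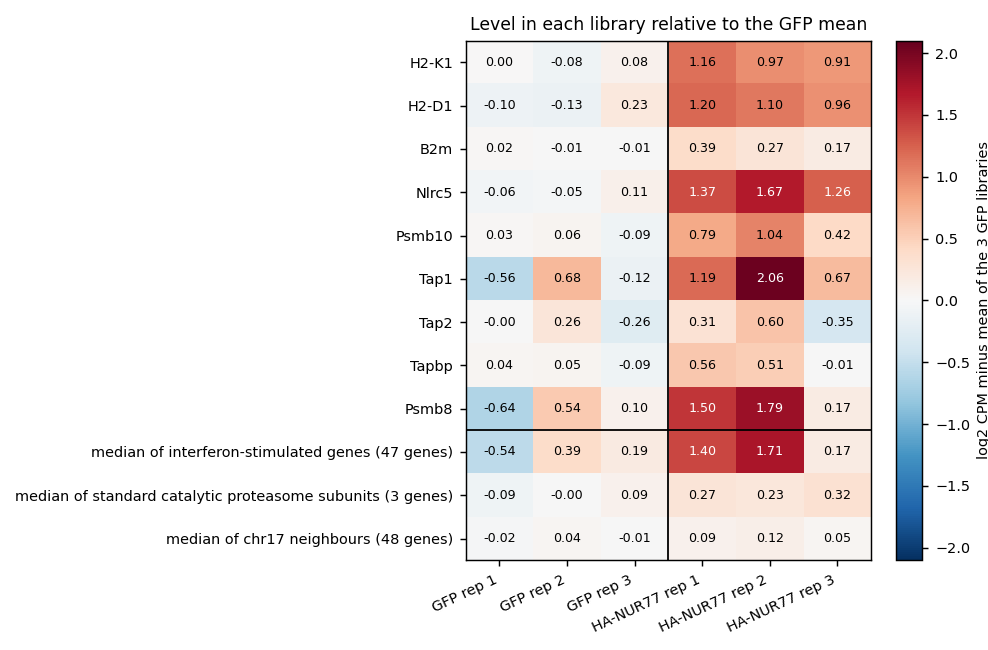
Level in each library as log2 CPM minus the mean of the 3 GFP libraries, for the 9 tested members and, below the line, the medians of 3 lists (red above, blue below the GFP mean). H2-K1, H2-D1 and Nlrc5 stand at 0.91 to 1.67 in all 3 HA-NUR77 libraries, while Psmb8 and the median of interferon-stimulated genes stand at 1.4 to 1.79 in HA1 and HA2 and at 0.17 in HA3.

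Several non-classical heavy chains rose by as much as H2-K1 or more. Of 34 other class I and class I-like genes listed, 26 were in the table and 15 were tested. Of these, 6 rose (40.0%, against 12.4% of all genes), 1 fell (against 13.2% of all genes) and 8 did not pass, with a median log2 fold change of 0.28. H2-Q4 went from 3.83 ± 0.734 to 14.2 ± 3.52 CPM (SD, n = 3), a 3.74-fold rise (edgeR adjusted p = 0.00169). H2-T22, a ligand of some gamma-delta T cells, went from 20.7 ± 1.99 to 43.5 ± 6.99 CPM (adjusted p = 0.00191). The others that rose were H2-T24, H2-T10, H2-Q2 and Hfe, an iron-regulating relative, by log2 0.95 to 1.68 (adjusted p from 0.0059 to 0.0287), and these 4 were named after their values were seen. H2-T10 and Hfe had few reads, 46 and 74 in HA-NUR77 against 12 and 21 in GFP. H2-T23, the mouse counterpart of HLA-E that natural killer receptors read, stood at 29.3 ± 7.68 and 23.6 ± 0.790 CPM (log2 0.32, SE 0.18, adjusted p = 0.229). H2-M3, the gene with the same spaced promoter letters, stood at 2.38 and 2.06 CPM (adjusted p = 0.544).

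Mr1, which presents vitamin B metabolites to MAIT cells, was the 1 class I-like gene that fell. It had 18.7, 21.3 and 18.3 CPM in HA-NUR77 and 43.2, 40.5 and 37.7 CPM in GFP, a 2.08-fold fall with no overlap (edgeR adjusted p = 0.000427). Of the 50-base windows of H2-T22 44.7% were shared with other genes, as were 42.9% of those of H2-T10, 24.3% of H2-Q4 and 3.23% of H2-T24, so reads of the first 3 may partly come from relatives. Members of this list higher numbered 3 without HA2 or GFP1 and 4 without HA1 or GFP3. Over all genes those higher numbered 1258, 642, 672 and 1489 in these fits, in that order, and 1549 with all libraries. With the block 6 were higher and 2 lower, against 2942 and 3071 of all genes.

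Most genes of the rest of the peptide loading machinery did not pass the test. Of 14 genes of loading and trimming in the endoplasmic reticulum 1 rose (7.14%, against 12.4% of all genes), 0 fell (against 13.2% of all genes) and 13 did not pass. At an unadjusted p under 0.05, 3 were higher and 0 lower, and DESeq2 gave 1 and 0 (1593 and 1849 over all genes). Their median log2 fold change was −0.03. The rise was in Tapbpl, the tapasin relative TAPBPR, from 11.8 ± 0.637 to 15.1 ± 1.5 CPM (edgeR adjusted p = 0.0424). The list had 1 gene higher without HA3 and 0 without any other 1 library. With the block, 4 were higher and 4 lower, against 2942 and 3071 of all 12509 genes.

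Standard proteasome subunits also rose, by smaller amounts than Psmb10. All 3 standard catalytic subunits were higher: Psmb7 by 1.35-fold (from 170 ± 11.0 to 230 ± 14.9 CPM, edgeR adjusted p = 0.00885), Psmb6 by 1.21-fold (adjusted p = 0.0263) and Psmb5 by 1.18-fold (adjusted p = 0.0463). Of the 11 other core subunits 5 rose (45.5%, against 12.4% of all genes) and 6 did not pass (median log2 fold change 0.19). Among those that rose were Psmb4 (log2 0.33, adjusted p = 0.00995), Psmb1 (0.25, adjusted p = 0.0226) and Psmb3 (0.30, adjusted p = 0.0233). Of 9 tested activators and assembly factors 3 rose (33.3%, against 12.4% of all genes). Psme2, the interferon-inducible activator subunit PA28 beta, rose 1.71-fold, from 49.6 ± 1.63 to 84.7 ± 12.3 CPM (adjusted p = 0.00309), while its partner Psme1 stood at 39.4 ± 6.06 and 45.6 ± 9.23 CPM (adjusted p = 0.368, 0.0284 with the block). The assembly factors Psmg3 (log2 0.51, adjusted p = 0.0224) and Pomp (0.28, adjusted p = 0.0274) also rose. With the block 6 of the 9 were higher, against 23.5% of all genes.

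These proteasome counts moved when single libraries were left out, and calls over the whole table also fell. Over all genes 1549 were higher with all libraries. Leaving out HA1, HA2 or HA3 gave 672, 1258 and 1049, and leaving out GFP1, GFP2 or GFP3 gave 642, 927 and 1489. Standard catalytic subunits higher numbered 1 without HA1 or HA3 or GFP1 or GFP2. Other core subunits higher numbered 1 without HA1 or GFP1, 2 without HA3 or GFP2, and 3 without GFP3. Activators and assembly factors higher numbered 1 without HA1 or HA3 or GFP1 or GFP2.

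Of the transcription factors that act at class I promoters, those that passed the test had smaller fitted changes than Nlrc5. Of 21 tested, 2 rose (9.52%, against 12.4% of all genes), 2 fell (against 13.2% of all genes) and 17 did not pass (median log2 fold change −0.05). At an unadjusted p under 0.05, 6 were higher and 3 lower. Irf1, an interferon regulatory factor, rose 1.23-fold (from 45.1 ± 4.35 to 55.6 ± 3.21 CPM, edgeR adjusted p = 0.0426) and Stat3 1.17-fold (adjusted p = 0.0434). Nfya, a subunit of the Y box factor NF-Y, fell 1.28-fold (adjusted p = 0.0186) and Creb1, an X2 box factor, 1.43-fold (adjusted p = 0.0257). Rfx5, which binds the X1 box, stood at 12.3 ± 3.23 and 14.2 ± 1.06 CPM (adjusted p = 0.477). The counts of higher and lower genes in this list were 3 and 1 when HA3 was left out, 0 and 0 when HA1 was, 0 and 1 when HA2 was, and 1 and 0 when GFP1 was. They were 0 and 2 when GFP2 or GFP3 was left out, 4 and 2 by DESeq2, and 3 and 5 with the block. Over all genes, 1549 were higher and 1655 lower with all libraries. Leaving out 1 library gave 642 to 1489 higher and 850 to 1572 lower, and the block gave 2942 and 3071.

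Of the interferon genes, Ifnb1 had 0 reads in the 6 libraries and Ifng 7. Of 16 tested receptors, kinases and brakes of interferon signalling, 0 rose (against 12.4% of all genes) and 2 fell (near the 13.2% of all genes) by edgeR. The counts were 0 and 2 by DESeq2, against 1593 higher and 1849 lower over all genes. They were 1 and 1 without HA3, and 1 and 4 where p under 0.05 was not adjusted. The gene with the largest fitted change did not pass: Usp18, an interferon-inducible brake, stood at 18.1, 32.2 and 3.95 CPM in HA-NUR77 and 1.19, 6.18 and 3.38 CPM in GFP (log2 2.38, SE 0.76, edgeR adjusted p = 0.0564). Those that fell were the kinase gene Jak2, from 50.4 ± 0.483 to 34.6 ± 3.34 CPM (edgeR adjusted p = 0.00442), and the phosphatase gene Ptpn1, from 100.8 ± 9.72 to 79.0 ± 8.26 CPM (adjusted p = 0.0422). Leaving out HA1, GFP1 or GFP2 gave 1 lower, leaving out GFP3 gave 4, and the block gave 6. Over all genes, 1549 were higher and 1655 lower in the main fit. Without 1 library there were 642 to 1489 higher and 850 to 1572 lower, and with the block 2942 and 3071.

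The MHC class II pathway, which serves professional antigen presenting cells, was nearly silent. Of 11 genes listed, 4 had no read and only H2-DMa was tested, at 1.95 ± 0.114 and 1.79 ± 0.677 CPM (edgeR adjusted p = 0.798), and Ciita, the class II counterpart of Nlrc5, had 1 read. For the 2 lists that follow, the shares over all genes were 12.4% higher and 13.2% lower by edgeR. Of 9 Polycomb and other repressor genes 0 passed by edgeR or DESeq2 (1 higher and 2 lower at an unadjusted p under 0.05, and the same numbers with the block). Trim28 was the most abundant of them (adjusted p = 0.732). Of 9 tested surface ligands that T and NK cells read, 0 rose and 2 fell (0 and 3 at an unadjusted p under 0.05, 0 and 2 by DESeq2). Those that fell were the death receptor gene Fas, 2.18-fold (edgeR adjusted p = 0.00246), and Cd276, 1.37-fold (adjusted p = 0.0487). Only 1 of the ligands was lower when HA1, HA3, GFP1 or GFP2 was left out, and the block gave 2 higher and 3 lower. Over all genes the block gave 2942 higher and 3071 lower.

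**Figure D5:**
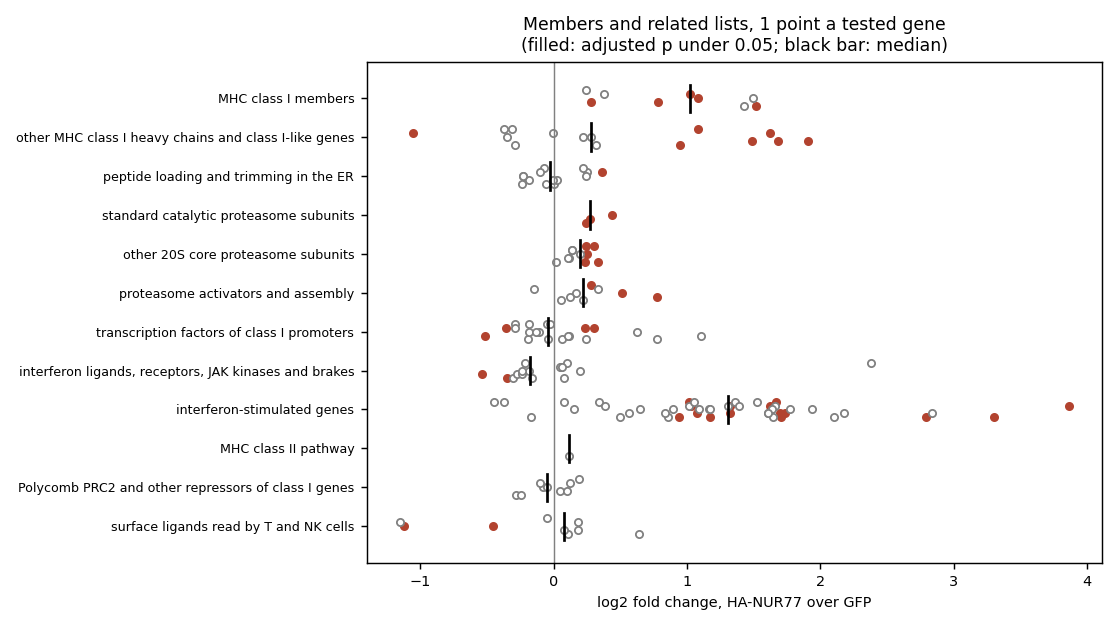
Log2 fold change of HA-NUR77 over GFP for each tested gene of the members and the 11 related lists, with filled points for an adjusted p under 0.05 and a black bar at the median. The members (median 1.02) and the interferon-stimulated genes (median 1.30) lie to the right, and the loading genes and class I transcription factors lie around 0.

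Most genes next to the members on chromosome 17 did not pass the test. Between Tapbp and H2-D1 (chr17:33915899-35267499), 48 genes outside all lists were tested. Of these 6 were higher (12.5%, against 12.4% of all genes), 1 lower and 41 did not pass (median log2 fold change 0.12). The smallest adjusted p values were those of Rps18, a ribosomal protein (log2 0.44, SE 0.07, edgeR adjusted p = 0.00492), the retinoid receptor gene Rxrb (0.31, SE 0.07, adjusted p = 0.0202) and Col11a2 (1.02, SE 0.25, adjusted p = 0.0216). The neighbours higher numbered 1 without HA1 or GFP1, 2 without HA3, 3 without GFP2, 4 without GFP3 and 11 with the block, and the 1 lower, Ehmt2, did not pass in any fit without 1 library, with the block giving 5. Over all genes those higher numbered 642 to 1489 without 1 library, 2942 with the block and 1549 in the main fit.

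Each tested gene was set beside the median log2 CPM, in each library, of the 8 members above 1 mean CPM. In every library that median lay midway between Psmb10 and H2-D1, so likeness to it is likeness to these 2 genes and not to the members as a set. Among the 10189 other tested genes that averaged 5 CPM or more, the most like it over the 6 libraries were Cox8a (Pearson's r = 0.997), Lamtor1 (0.996), Tmem41a (0.995), Nampt (0.994) and Dgka (0.993). All 5 were higher in the 3 HA-NUR77 libraries than in GFP and lowest of these in HA3. These values describe 6 libraries in 2 groups, picked as the highest of many genes.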

How the data were processed

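Each library has a table of whole-number counts for 23154 Ensembl gene IDs, as deposited by the authors without normalisation and without summary lines. TopHat2 2.1, HTSeq, DESeq2 and the build mm10 are named per the submitters' processing notes; per the labels' protocols the libraries were stranded and poly(A)-selected. The annotation release and strand setting of the counting are not given in the sources used here. Symbols came from GENCODE M21 for 22872 IDs.

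The counts were tested with edgeR 4.0.16 (R 4.3.3) by its quasi-likelihood test (TMM factors, robust fitting, a model of group alone). filterByExpr with a minimum count of 10 left 12509 genes, with Benjamini-Hochberg adjustment over all of them and a threshold of 0.05. CPM use the library total times its TMM factor. Intervals are 95%. Alternatives used other scaling, filters, DESeq2 1.42.0, limma-voom (limma 3.58.1), each library left out, and the replicate number as a block. The labels do not say that a number marks a shared day. Deviations of same-numbered libraries from their group means correlated at 0.25, 0.551 and 0.475 over genes, each above the 0.1 set for this check. Libraries of unlike number were not compared in this way, so the check cannot show that the numbers mark pairs. No 2 libraries of a group agreed within sampling noise (chi-square per degree of freedom at least 11.4). The scripts were tested on simulated data.

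The members and lists were chosen with earlier results of these data known. All members are named. Of each related list the 3 smallest adjusted p past the threshold, or the most abundant member, are named, with Nr4a1, Irf1, Rfx5, Psme1 and Psme2; 1 further gene of that rule is not reported here. The most abundant marker of each cell type is named, as are the 3 chromosome 17 neighbours of smallest adjusted p and the 5 genes most like the median level of the members over the libraries. Other genes (Isg15, Bst2, Stat3, H2-T10, H2-T23, H2-T24, H2-Q2, H2-M3, Hfe, Ifnb1, Ifng, Ciita, Ehmt2, Ptprc, Vwf, Usp18, Trac, Csf1r, Pdgfra, Ly6a and Cd34) were named after their values were seen.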

Additional observations from a re-analysis of the deposited data

How the results depend on the processing

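Under 14 alternatives none of the 9 tested members changed sign (Psmb8 was not tested under 1 of them), and H2-K1, H2-D1, Psmb10 and Nlrc5 passed in each. The replicate block gave 2942 genes higher and 3071 lower over the whole table in place of 1549 and 1655, and 8 members higher in place of 5, since Tap1 (log2 fold change 1.4), Tapbp (0.36) and Psmb8 (1.45) passed. With the block the counts were 2 lower of the other class I genes, 4 higher and 4 lower of the loading genes, 6 higher of the proteasome activators and assembly factors, 5 lower of the transcription factors, 6 lower of the interferon receptors and kinases, 1 higher and 2 lower of the repressors, 2 higher of the surface ligands, and 11 higher and 5 lower of the chromosome 17 neighbours. DESeq2 called Tap1 higher (1.4), with 2 other class I genes lower, 4 transcription factors higher and 2 neighbours lower. With no filter on low counts B2m did not pass (0.28), and there were 2 other class I genes lower, 0 loading genes higher, 1 transcription factor higher, 9 interferon-stimulated genes higher, 1 surface ligand lower and 0 neighbours lower. Upper-quartile factors or library totals only gave 2 loading genes higher, 1 interferon receptor or kinase gene lower, 1 surface ligand lower and 0 neighbours lower, and the filter of at least 1 CPM in 3 libraries gave 1 surface ligand lower and left Psmb8 untested. RLE factors and limma-voom moved none of these counts by over 1.5 times.

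Leaving out each library in turn gave 642 to 1489 genes higher and 850 to 1572 lower, and 4 to 8 members higher. It gave log2 fold changes of 0.22 to 0.33 for B2m, 0.93 to 1.87 for Tap1, 0.27 to 0.53 for Tapbp and 1.15 to 1.88 for Psmb8. The counts ran from 3 to 6 higher for the other class I genes, 0 to 1 for the loading genes, 1 to 3 for the standard catalytic subunits, 1 to 6 for the other core subunits and 1 to 3 for the activators and assembly factors. They ran from 0 to 3 higher and 0 to 2 lower for the transcription factors, 0 to 1 higher and 1 to 4 lower for the interferon receptors and kinases, 7 to 35 higher for the interferon-stimulated genes, 0 to 1 lower for the repressors, 1 to 3 lower for the surface ligands, and 1 to 6 higher and 0 lower for the neighbours. The log2 difference of the ratio ran from 0.74 to 1.7 for Psmb8 to Psmb5 and from 0.13 to 0.53 for Psmb10 to Psmb7. The cause of these moves was not tested, and fewer libraries also mean less power. Reads limit Psmb9 (12 in all) and Psmb8 (97).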
